A study of Danio rerio with 12 samples.

Results

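The head of the normal zebrafish larva at 5 days post fertilization (dpf) was described from the wild-type samples of the series. They comprise 3 of the 6 head pools sequenced, each of 5 dissected heads from WIK-background larvae of genotype +/+. These larvae were siblings from an incross of *rb1* heterozygotes. Heads were cut through the hindbrain, RNA was taken with TRIzol into TruSeq libraries, and each pool was sequenced on 2 lanes, which were joined here as 1 replicate. The mutant pools were not analysed here, so all values below concern 1 genotype at 1 age, and no test between groups was made. The labels do not say whether the pools came from separate clutches, so the spread between pools may hold both biological and technical parts. The *rb1* gene, for which the larvae had been genotyped, was expressed at 14.3, 11.3 and 10.1 TPM in wild-type pools 1, 2 and 3, the order in which all sets of 3 values are given. TPM, the length-normalised abundance of a transcript, is a count divided by the exonic length of its gene and scaled to the same total in every pool, so that levels of different genes can be set side by side.

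By 5 dpf the zebrafish larva hunts by sight. Its retina is layered and rich in cones, its lens is packed with crystallin proteins, and its jaw is built of cartilage moved by fast muscle. The skin is a thin keratin-rich epidermis that also exchanges ions with the water, and red blood cells carry embryonic globins. Photoreceptors turn light into a membrane signal through an opsin, the G protein transducin, a cyclic GMP phosphodiesterase and cyclic nucleotide-gated channels. Arrestins and opsin kinases then switch the opsin off.

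The pools held 46621056, 41065256 and 45542058 counts on genes. Of the 32266 genes in the table, 20084 (62.2%) were detected at 1 TPM or more in each of the 3 pools, and their median was 13.4 TPM. A further 4453 genes had no count in any pool. In total 1090 genes reached 100 TPM in every pool and 143 reached 1000 TPM. Across the 20084 detected genes, Pearson's r of log2(TPM + 1) between pairs of pools was 0.989 for pools 1 and 2, 0.985 for pools 1 and 3 and 0.990 for pools 2 and 3. These correlations are across genes, which are not independent replicates.

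The most abundant transcripts of the head came from mitochondria, epidermis, striated muscle, lens and photoreceptors, and from lipoprotein genes. The 20 highest genes of each pool held 13.7, 13.1 and 13.1% of all TPM, and the 100 highest held 32.2, 31.5 and 31.2%. Between 337 and 370 genes made up the first 50% of TPM in a pool. Among the 20 genes of highest mean TPM, 6 were encoded by the mitochondrial genome. *mt-co1*, a subunit of cytochrome c oxidase, led with 11762, 11345 and 10721 TPM, and *mt-co3*, another subunit, had 11663, 10845 and 10995 TPM. The pools overlapped in order here, since *mt-co3* was above *mt-co1* in pool 3. *mt-co2* had 9223, 9369 and 9079 TPM and *mt-atp6*, an ATP synthase subunit, 8762, 7234 and 7851 TPM. *mt-atp8* and *mt-cyb* averaged 5577 ± 348 and 5164 ± 279 TPM (SD, n = 3). At 165 bases *mt-atp8* was the shortest of the 20 genes, and it ranked 293 by counts against 11 by TPM.

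Outside the mitochondrial genome, *apoa1b*, the apolipoprotein of high-density lipoprotein particles, was highest with 11129.9, 9222 and 10757 TPM. *actc1b*, an alpha actin of striated muscle, followed with 8352, 8362 and 7882 TPM, and the epidermal keratin *krt4* had 9042, 7638 and 7586 TPM. *krt4* was higher in pool 1 than in pools 2 and 3, which were nearly level. The ultraviolet cone opsin *opn1sw1* had 6851, 7144 and 6827 TPM, and the rod opsin *rho* 6076, 5178 and 4961 TPM. Of the lens crystallins, *crybb1* had 5503, 6706 and 5914 TPM, *cryba4* 5600.3, 6148 and 5633 TPM, *crygm2d13* 3901, 4442 and 3900.3 TPM and *cryba1b* 3508, 3891 and 3584 TPM. All 4 were highest in pool 2. The remaining genes of the 20 were the translation elongation factor *eef1a1l2* (5004 ± 194 TPM, SD, n = 3), the cytoplasmic actin *actb2* (4957 ± 516), the ribosomal protein gene *RPL41* (4862 ± 77.2), the mitochondrial ADP/ATP carrier *slc25a5* (4737 ± 116) and the apolipoprotein *apoa2* (4063 ± 598).

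**Figure D1:**
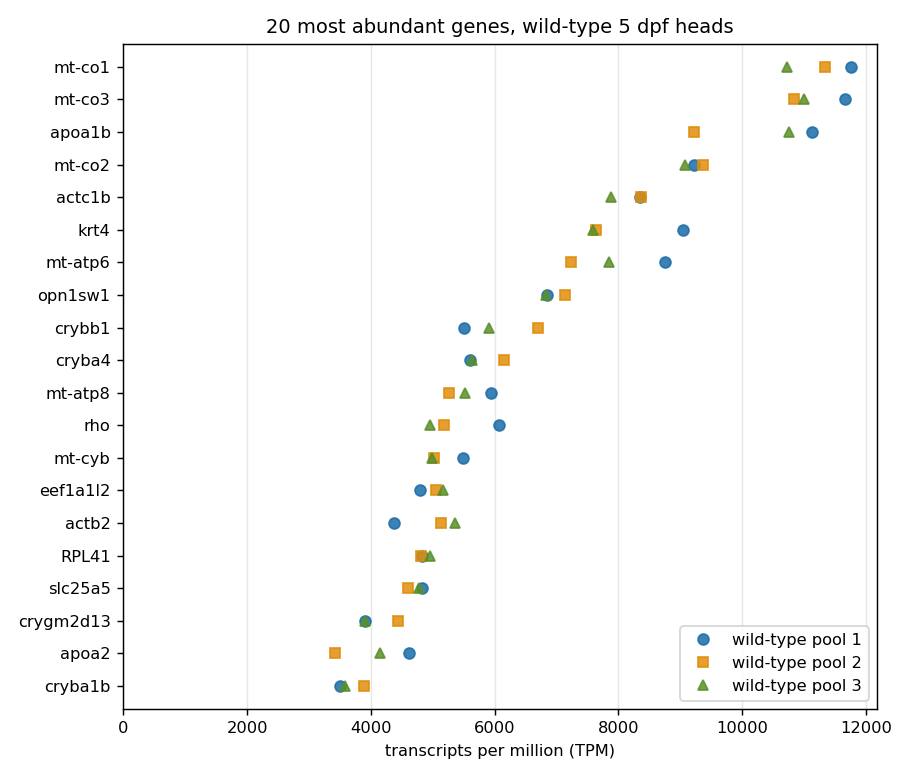
TPM of the 20 genes of highest mean TPM (rows) in wild-type pools 1, 2 and 3 (symbols), on a linear axis from 0. The genes run from *mt-co1*, with a mean of 11276 TPM, to *cryba1b*, with a mean of 3661 TPM, and pool 1 lies to the right for *krt4*, *mt-atp6* and *rho*.

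By counts, which favour long genes, the order differed. *krt4* took 508355, 368994 and 407131 counts and was first, followed by *mt-co1*, *eef1a1l2*, *opn1sw1*, *apoa1b*, *actb2*, *actc1b*, the constitutive heat shock protein gene *hspa8*, *mt-co3* and *rho*. *hspa8* took 220185, 173518 and 208324 counts. The 10 highest genes of each pool held 6.11 ± 0.222% of all counts (SD, n = 3).

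Of the 100 genes of highest mean TPM, 36 encoded cytosolic ribosomal proteins, 12 were protein genes of the mitochondrial genome and 12 were lens genes. Photoreceptor and fast muscle genes supplied 6 each, skin genes 5, liver genes 4 and histone genes 1. A further 18 were in none of the lists used, the striated muscle actin *actc1b* included. Among them were also the elongation factor *eef2b* (2548, 3024 and 3181 TPM) and the chaperone *hsp90ab1* (2084, 2382 and 2407 TPM). No gene of the neuron lists was among the 100. All 88 ribosomal protein genes were detected and summed to 12.7, 12.8 and 12.8% of TPM, a coefficient of variation of 0.427% between pools. After *RPL41*, the highest were *rplp0* (3461, 3496 and 3712 TPM) and *rps20* (3334, 3153 and 3130.2 TPM). The 13 protein genes of the mitochondrial genome summed to 6.75, 6.17 and 6.19% of TPM. By TPM 12 of the 13 were highest in pool 1, the exception being *mt-co2*, and by counts all 13 were, under each of 3 scalings. *mt-nd4l*, a subunit of complex I, was the widest of them at 1.28-fold, a fold difference being the highest over the lowest pool after TMM (trimmed mean of M values) scaling of the counts. Counts of genes highest or lowest in a pool use the same scaling. Of the 105 nuclear genes for respiratory chain subunits and assembly, 104 were detected, with 1.71, 1.51 and 1.55% of TPM. *atp5b*, a subunit of ATP synthase, was the highest of them at 1285, 1195 and 1226 TPM, followed by 2 further subunit genes, *atp5a1* (984, 951 and 975 TPM) and *atp5g3b* (718, 663 and 689.6 TPM). Pool 1 was highest for 79 of the 91 with a mean of at least 5 CPM (a count scaled to the library total), and *sdhaf1*, an assembly factor of complex II, was the widest (1.74-fold). Over all 15516 genes at that mean, pools 1, 2 and 3 were highest for 37.1, 28.1 and 34.8%. They were lowest for 37.0, 29.7 and 33.3%.

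Tissue composition was described with lists of marker genes, each given as its summed TPM in percent of all TPM. A share depends on how many and which genes a list holds, so shares of different lists are not shares of cells. In pooled heads, fewer cells of a type and less RNA per cell cannot be told apart. Lists and members were chosen with earlier results of these data known. Shares of a list past a fold limit, set below beside those of all genes, are therefore descriptions only. The number of genes detected in each list stands against 62.2% of all genes detected. The eye lists held the largest share, with 8.87 ± 0.417% of TPM (SD, n = 3) over 175 genes, of which 164 were detected. Genes of the skin lists held 3.00 ± 0.191%, and those of skeletal muscle 2.92 ± 0.333%. The muscle lists leave out the striated muscle actin *actc1b* (mean 8199 TPM), so the place of muscle among the tissues depends on list choice. The 245 genes of the brain lists, of which 241 were detected, held 1.93 ± 0.0847%. Skeleton and connective tissue genes held 0.852 ± 0.0862%, and blood and immune genes 0.254 ± 0.0241%. As a share of counts, where long genes weigh more, the eye lists held 5.69 ± 0.271%, the brain lists 2.52 ± 0.101% and the skeletal lists 1.81 ± 0.192%.

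**Figure D2:**
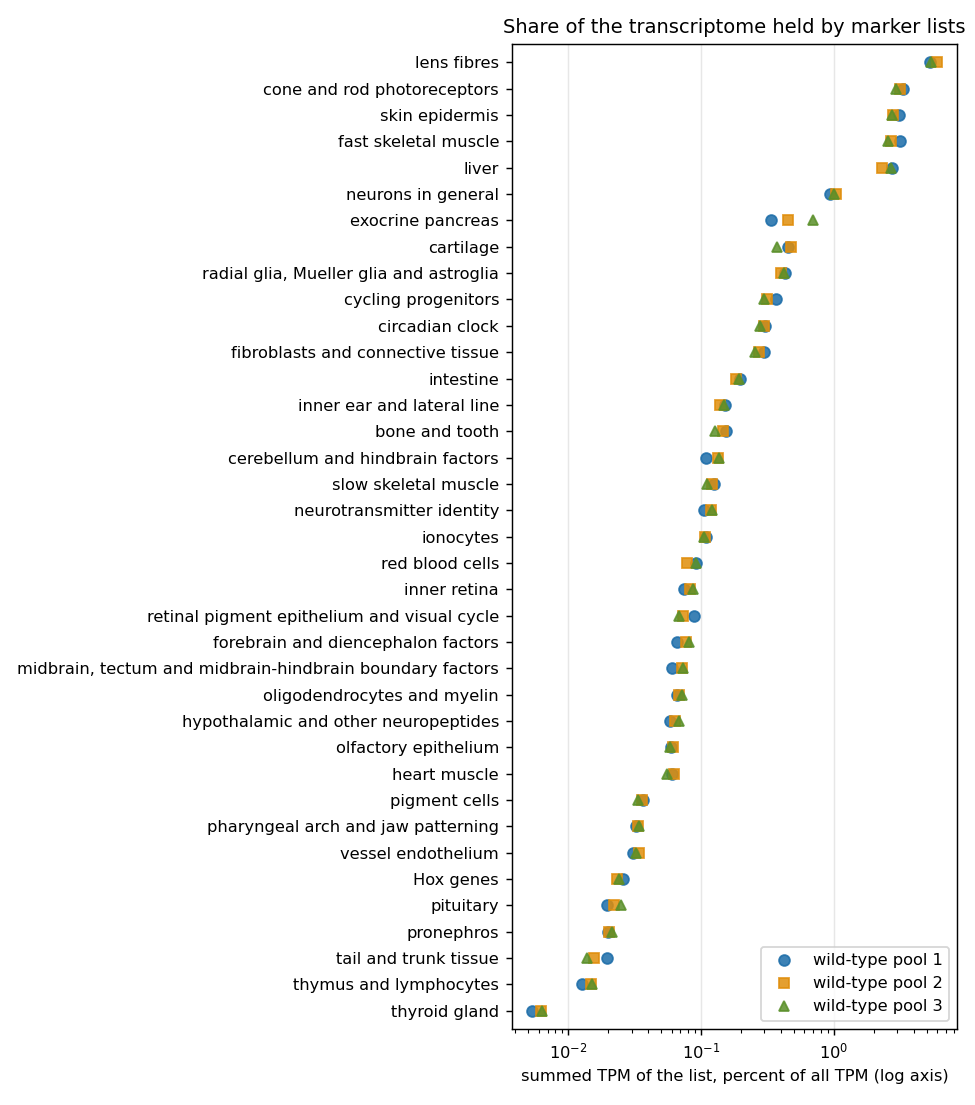
Summed TPM of marker lists in percent of all TPM (log axis) in wild-type pools 1, 2 and 3 (symbols), lists ordered by their mean. The macrophage, neutrophil, immediate early, glucocorticoid and interferon lists are not shown, nor are the lists made by gene name pattern. Lens genes lead with a mean of 5.57% and thyroid genes are last with 0.00596%. The exocrine pancreas list shows the widest gap between pools, with 0.338% in pool 1 and 0.693% in pool 3.

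By TPM, lens transcripts were the most abundant of any tissue list. Of the 68 lens genes, 60 were detected and 39 reached 100 TPM in every pool, and the list held 5.32, 6.0 and 5.39% of TPM, highest in pool 2. As a share of counts lens (2.84 ± 0.164%), skin (2.67 ± 0.208%), photoreceptor (2.67 ± 0.188%) and fast muscle genes (2.60 ± 0.285%) overlapped (SD, n = 3 each), and in pool 1 lens was below the other three. The beta crystallins, structural proteins of the fibre cells, summed to 25398, 28679.9 and 25915 TPM over 13 genes. The gamma M crystallins, a fish family of the same kind, summed to 22692, 26069 and 23063 TPM over 34 genes. Their ratio, 1.11 ± 0.0125 (SD, n = 3), varied far less between pools than either sum. Gamma N crystallins added 3016 ± 89.1 TPM. Alpha crystallins, the lens chaperones, added only 184 ± 6.08 TPM, and none of the 4 gamma S genes was detected. Within the list *crybb1* held the largest part, 10.8%. Many gamma M genes are near-identical copies, and since only unique alignments were counted, the values of single members are uncertain. None of the 52 lens genes with a mean of at least 5 CPM differed by 2-fold between pools, where 1.8% of all 15516 genes at that mean did, and the widest, *crygmxl1*, differed by 1.43-fold.

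Photoreceptor genes followed. Of 69 genes, 66 were detected and 25 reached 100 TPM in every pool. They held 3.29, 3.17 and 2.96% of TPM. The 5 opsin classes of rods and cones were all present. The ultraviolet cone opsin *opn1sw1* supplied 35.1 ± 1.21% of their summed TPM (SD, n = 3), and the rod opsin *rho* 27.3 ± 2.5%. The red cone opsins supplied 16.8 ± 0.875%, the green 10.7 ± 0.723% and the blue 10.1 ± 0.461%. The green and blue classes did not differ beyond their spread, and their order changed in pool 1.

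Among the red cone opsins, *opn1lw2* had 3079.9, 3448 and 3023 TPM, against 122, 148 and 137 TPM of *opn1lw1*. The 4 green cone opsins lie in tandem and are switched on at different times and places in the retina. Of these, *opn1mw1* had 1997, 2313 and 1989.5 TPM and *opn1mw2* 14.8, 18.6 and 16.5 TPM. *opn1mw3* took 8, 0 and 9 counts and *opn1mw4* 1, 2 and 4 counts, both far below 1 TPM. The blue cone opsin *opn1sw2* had 2022, 2154 and 1808 TPM. The order was *opn1sw1*, *rho* and *opn1lw2* in every pool, and the values of these 3 did not overlap. Those of *opn1mw1* and *opn1sw2* overlapped, and *opn1lw1* and *opn1mw2* lay well below both.

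Downstream of the opsins, cone transcripts were above rod transcripts at the transducin, arrestin, phosphodiesterase and kinase steps. The cone transducin gene *gnat2* had 1347, 1261 and 958 TPM, against 291, 241 and 244 TPM of its rod counterpart *gnat1*, a ratio of 4.59 ± 0.660 (SD, n = 3). Cone arrestins summed to 1388, 910.4 and 1177 TPM and rod arrestins to 361, 256 and 269.6 TPM, a ratio of 3.92 ± 0.408. All cone opsins over *rho* gave 2.68 ± 0.323. The cone phosphodiesterase gene *pde6c* had 323, 228 and 137 TPM, while the rod genes *pde6a* and *pde6b* had 50.5, 40.5 and 40.5 TPM and 26.1, 21.4 and 23.2 TPM. Among opsin kinases, the cone gene *grk7a* had 291, 201 and 145 TPM, and the *grk1* genes, *grk1b* and *grk1a*, had 119, 137 and 97.8 TPM and 37.7, 29 and 34.9 TPM. Of the channel subunits, the cone gene *cnga3a* had 36.1, 37.5 and 27.9 TPM and the rod gene *cnga1* 13.3, 11.3 and 11.3 TPM.

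Several of these downstream genes differed strongly between the wild-type pools, while the opsins differed less. *cnga3b*, which encodes a cone channel subunit, had 26.2, 12.2 and 5.55 TPM, the widest spread of the list (4.93-fold). *pde6c* differed by 2.46-fold and *grk7a* by 2.09-fold, both highest in pool 1 and lowest in pool 3. Guanylate cyclase activators are calcium sensors that reset the photoreceptor after light. Of these, *guca1c* had 159, 119.8 and 42.4 TPM, *guca1d* 30.2, 27.7 and 9.40 TPM and *guca1g* 46.3, 47.2 and 17.6 TPM, each lowest in pool 3. *guca1e* ran the other way, with 4.60, 7.48 and 19.4 TPM, highest in pool 3. The opsins *opn1sw1* and *rho* differed by 1.06-fold and 1.28-fold. In all, 8 of the 64 photoreceptor genes with a mean of at least 5 CPM differed by 2-fold or more (12.5%), against 1.8% of all genes at that mean. Without pool 3 only 1 of the 64 did, without pool 1 6 and without pool 2 8. The median difference was 1.29-fold for the list and 1.17-fold for all genes. The highest value was in pool 1 for 39 of the 64 and the lowest in pool 3 for 38. Over all genes these shares were 37.1 and 33.3%.

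**Figure D3:**
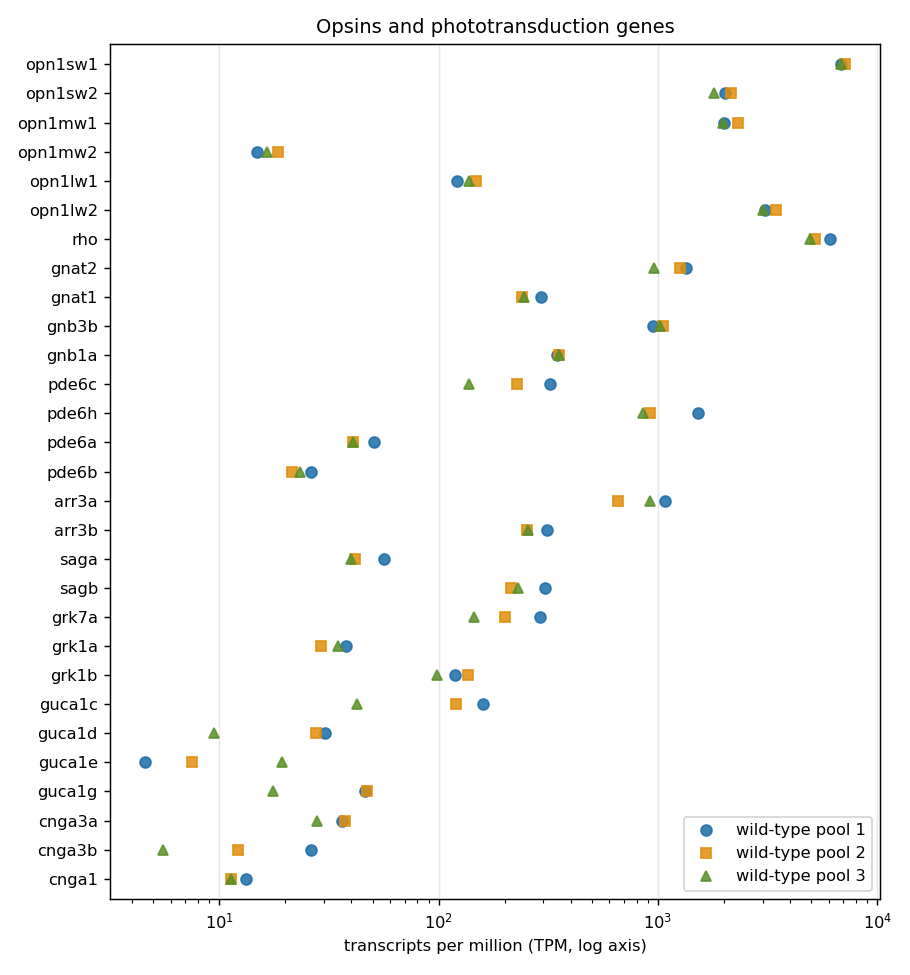
TPM of opsins and phototransduction genes (rows, log axis) in wild-type pools 1, 2 and 3 (symbols). The opsins of all 3 pools lie close together, whereas pool 3 lies far to the left for *pde6c*, *cnga3b*, *guca1c*, *guca1d* and *guca1g* and far to the right for *guca1e*.

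Genes of other eye cells, and of pigment cells of the whole head, were nearly all detected. All 17 genes of the retinal pigment epithelium and visual cycle were present. *irbp* encodes the retinoid carrier between photoreceptors and pigment epithelium. It had 482, 314 and 222 TPM and held 44.2% of that list, with a 2.27-fold difference between pools. *rlbp1a*, a retinaldehyde-binding protein gene, had 69.9, 82.6 and 88.7 TPM, and *rdh10a*, a retinol dehydrogenase gene, 59.8, 61.0 and 64.2 TPM. All 21 inner retina genes were detected, led by the G protein gene *gnao1b* (108, 120.5 and 122 TPM), the amacrine cell factor *tfap2a* (98.7, 111 and 120.5 TPM) and the retinal homeobox gene *rx1* (81.8, 86.5 and 84.1 TPM). Heads were sequenced whole, so transcripts of *gnao1b* and *tfap2a* made outside the retina would be counted here too. The widest member of the inner retina list was *cabp5b*, a calcium-binding protein gene of bipolar cells (1.65-fold). Of 19 pigment cell genes 18 were detected, and the melanin synthesis genes *tyrp1b* (61.7, 60.8 and 55.3 TPM) and *dct* (32.5, 36.8 and 29.6 TPM) and the melanosome matrix gene *pmela* (46.8, 53.9 and 49.4 TPM) led them. The iridophore gene *pnp4a*, of purine synthesis, differed most (1.98-fold).

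Brain transcripts were many and of moderate level. All 49 general neuronal genes were detected, 33 of them at 100 TPM or more in every pool, with a median of 151 TPM against 13.4 TPM for all detected genes. They summed to 0.935, 1.04 and 1.00% of TPM. The microtubule regulator *stmn1b* had 685, 745 and 649 TPM, the synuclein *sncb* 631, 723 and 703 TPM and the membrane glycoprotein gene *gpm6aa* 544, 648 and 623 TPM. Of the 48 neuronal genes with a mean of at least 5 CPM, none differed by even 1.5-fold between pools, where 7.68% of all genes did. The widest was the synapsin *syn2b*, at 1.43-fold. The value was highest in pool 2 for 31 of the 48 genes, and for 26 under scaling by total counts. Over all genes at that mean, TMM scaling put pool 2 highest for 28.1%.

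Genes that mark transmitter identity were all detected, 29 of 29. Inhibitory genes were the most abundant. The GABA-synthesizing enzyme genes *gad1b* and *gad2* had 183, 207 and 217 TPM, and 101, 118 and 129 TPM, and the GABA transporter *slc6a1b* had 172, 213 and 212 TPM. The glutamate decarboxylases summed to 1.89 ± 0.111 times the TPM of the vesicular glutamate transporters (SD, n = 3), of which *slc17a6b* (60.8, 61.1 and 58.1 TPM) and *slc17a6a* (44.3, 48.3 and 52.1 TPM) were the highest. The glycine transporter *slc6a5* of inhibitory neurons had 32.4, 36.4 and 33.3 TPM. Monoamine genes were low but present, with 10.6, 10 and 11.9 TPM of the dopamine synthesis gene *th* and 6.40, 7.28 and 6.08 TPM of the serotonin synthesis gene *tph2*. The widest transmitter gene was *tph1a* (1.55-fold).

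Of the 38 neuropeptide genes, 36 were detected, and the median of the list was 11.5 TPM. *adcyap1b* encodes a pituitary adenylate cyclase-activating peptide and had 87.0, 96.1 and 98.6 TPM. The somatostatin genes *sst3* and *sst1.1* had 56.9, 62.7 and 65.8 TPM and 46.8, 64.6 and 63.7 TPM. Oxytocin (*oxt*) was at 15.5, 21.2 and 23.0 TPM, and hypocretin (*hcrt*), made by a few hypothalamic cells, was still detected at 3.27, 3.70 and 3.33 TPM. *pmchl*, a melanin-concentrating hormone gene, differed most, by 1.62-fold.

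Glial genes held 0.427, 0.398 and 0.42% of TPM, and 25 of 26 were detected. The radial glial fatty acid-binding protein gene *fabp7a* had 860.2, 799 and 732 TPM, the glutamine synthetase gene *glula* 592, 583 and 561 TPM and the apolipoprotein *apoeb* 521, 456 and 582 TPM. *slc1a2a*, a glutamate transporter gene, had 47.7, 38.0 and 18.4 TPM and differed by 2.71-fold, while its paralog *slc1a2b* had 339, 414 and 404 TPM. All 19 oligodendrocyte and myelin genes were detected, at 0.066, 0.0684 and 0.0716% of TPM. *mbpa* and *mbpb*, for myelin basic protein, had 106, 101 and 117 TPM and 75.0, 73.6 and 71.1 TPM. The myelin-list gene *zgc:153704* had 106, 118 and 138 TPM, and the lineage factor *olig1* was the widest, at 1.66-fold.

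Regional patterning factors of all brain divisions were present. All 30 forebrain and diencephalon factors were detected, led by the hypothalamic factor *otpa* (48.6, 72.4 and 70.8 TPM), *lhx1a* (48.7, 62.3 and 61.7 TPM) and *zic2a* (48.1, 56.6 and 62.6 TPM). *fezf2*, a forebrain zinc finger factor, was the widest (1.53-fold). Of 24 midbrain and boundary factors 23 were detected, led by the tectal factors *meis2a* (137, 149.8 and 153 TPM) and *meis2b* (74.3, 99.3 and 94.1 TPM) and by *gata3* (65.8, 83.0 and 86.4 TPM), with *pax7a* the widest (1.42-fold). All 30 cerebellum and hindbrain genes were detected. *neurod1*, a neuronal differentiation factor also made in the retina and pituitary, had 323, 467 and 469 TPM, the Purkinje cell gene *pvalb7* 316, 388 and 371 TPM and the granule cell factor *zic1* 74.1, 82.9 and 90.4 TPM. Pool 1 was lowest for 20 of 27 forebrain, 17 of 20 midbrain and 16 of 20 hindbrain genes, against 37.0% of all genes. The list counts were 20 to 21, 17 and 16 to 18 over 3 scalings. The differences were small, with medians of 1.18, 1.22 and 1.18-fold against 1.17-fold for all genes.

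Cycling progenitor genes, many of whose products copy DNA or divide the cell, held 0.366, 0.316 and 0.299% of TPM and were all detected (33 of 33). The tubulin gene *tubb2b* had 883, 812 and 843 TPM, and the chromatin genes *hmgb2b* and *h2afvb* had 575, 495 and 477 TPM and 483, 451 and 435 TPM. The share leans on these general tubulin and chromatin genes, with 25.9% of it from *tubb2b*, so it is not a measure of cycling cells. The replication clamp *pcna* had 284, 199 and 159 TPM, highest in pool 1. The genes of the MCM helicase, which unwinds DNA at the start of S phase, were among the widest of the list. *mcm6* had 38.0, 22.5 and 13.2 TPM, a 3.01-fold difference, and *mcm5*, *mcm2*, *mcm3* and *mcm4* differed by 2.74, 2.64, 2.59 and 2.44-fold. The thymidylate synthase gene *tyms* differed by 2.84-fold. All 6 MCM genes, *mcm7* (1.37-fold) included, were highest in pool 1 and lowest in pool 3, against 20.4% of all genes. The 12 genes of G2 phase and mitosis in the list with a mean of at least 5 CPM, grouped after their values were seen, differed by 1.07 to 1.38-fold. They were the kinase genes *cdk1* (32.9, 31.1 and 32.1 TPM), *plk1* (26.9, 25.4 and 28.9 TPM), *aurka*, *aurkb* and *bub1*, the cyclin genes *ccna2*, *ccnb1* and *ccnb3*, and *cdc20*, *kif11*, *top2a* and *mki67*, with *ccna2* the widest. In all, 6 of the 30 progenitor genes with a mean of at least 5 CPM differed by 2-fold (20%, against 1.8% of all genes). All 6 rested on the gap between pools 1 and 3, and none passed 2-fold with either of these pools left out. The median difference was 1.26-fold. Pool 1 was highest for 28 of the 30, and for 10 of the 12 G2 and mitotic genes, against 37.1% of all genes.

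Fast skeletal muscle was the main muscle signature. Of 62 genes, 61 were detected, and they held 3.17, 2.68 and 2.56% of TPM, without the striated muscle actin *actc1b*, which is in no list. The myosin light chain gene *mylpfa* had 3888, 3696 and 2979 TPM, and the parvalbumins *pvalb1* and *pvalb2*, calcium buffers of fast fibres, had 4189, 2852 and 3028 TPM and 3178, 2094 and 2319 TPM. Parvalbumins were highest in pool 1, summing to 8768, 6268 and 6489.9 TPM. The fast light chains summed to 7405, 6545 and 5715 TPM, and the fast heavy chains to 1433, 1284 and 1199.9 TPM, some of them tandem copies whose single values are uncertain. Among the 61 fast muscle genes with a mean of at least 5 CPM, 3 differed by 2-fold and 19 by 1.5-fold (31.1%, against 7.68% of all genes). The highest value was in pool 1 for 45 of the 61, against 37.1% of all genes. Of the 61, 4 passed 1.5-fold without pool 1, 14 without pool 2 and 11 without pool 3. *myha*, a myosin heavy chain gene, ran the other way, with 9.84, 14.4 and 25.2 TPM.

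Slow muscle genes held 0.125, 0.121 and 0.11% of TPM, with 13 of 14 detected. *myl10*, a myosin light chain gene, had 449, 404 and 377 TPM, the tropomyosin *tpm2* 228, 269.8 and 218 TPM and the troponin *tnnc1b* 160.4, 142 and 139 TPM. Slow myosin heavy chains summed to 78.0 ± 4.13 TPM (SD, n = 3), against 1305 ± 118 TPM of the fast ones. *smyhc2* was the widest slow gene (1.68-fold). Heart muscle genes were also detected, 20 of 22, at 0.0605, 0.0625 and 0.0558% of TPM. *myl4* had 120.0, 144 and 87.5 TPM, *cmlc1* 86.3, 79.2 and 73.6 TPM and the calcium pump *atp2a2a* 66.1, 73.5 and 76.5 TPM. The cardiac myosin heavy chains summed to 63.8 ± 1.51 TPM.

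Cartilage matrix genes held 0.454, 0.475 and 0.373% of TPM, and all 33 were detected, with a median of 52.0 TPM. Their share of counts was larger, 0.933 ± 0.115%, where long transcripts weigh more (*col2a1a* spans 5967 exonic bases). The type II collagen gene *col2a1a*, the main fibre of cartilage, had 1072, 1057 and 874 TPM, the matrix protein gene *matn1* 417, 511 and 311 TPM and the type IX collagen gene *col9a1a* 344, 368 and 290.3 TPM. The master factor *sox9a* had 43.9, 52.9 and 59.3 TPM. The aggrecan gene *acana*, of the gel between the fibres, had 17.2, 37.5 and 23.8 TPM and was highest in pool 2, as were *matn3a* (4.69, 10 and 5.86 TPM) and *chad*, for the matrix protein chondroadherin (7.84, 18.9 and 9.86 TPM). *chad* was the widest, at 2.34-fold. In all, 11 of 30 cartilage genes with a mean of at least 5 CPM differed by 1.5-fold (36.7%, against 7.68% of all genes). The lowest value was in pool 3 for 20 of the 30, against 33.3% of all genes. Of the 30, 2 passed 1.5-fold without pool 2, against 8 without pool 1 and 6 without pool 3.

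Of 24 bone and tooth genes 19 were detected. The matrix glycoprotein gene *sparc* had 619, 519.7 and 497 TPM, the type X collagen gene *col10a1a*, of forming bone and hypertrophic cartilage, 506, 444 and 346 TPM, and *scpp5*, a matrix gene of teeth, 89.3, 97.3 and 93.9 TPM. *scpp9*, of the same gene family, was the widest with 22.6, 56.5 and 35.3 TPM. Connective tissue genes held 0.3, 0.274 and 0.253% of TPM with 29 of 30 detected, and the type I collagen genes led, with 459, 443 and 405 TPM of *col1a1a*, 399, 387 and 337 TPM of *col1a1b* and 398, 350.5 and 329 TPM of *col1a2*. Summed TPM of type II over type I collagen was 1.1 ± 0.0523 (SD, n = 3). The microfibril gene *mfap2* was the widest (1.63-fold). All 24 pharyngeal arch and jaw patterning genes were detected at low level, led by *dlx5a* (41.7, 42.6 and 38.3 TPM), *tbx1* (30.2, 31.4 and 31.8 TPM) and *dlx3b* (23.5, 28.6 and 28.8 TPM). None of their 18 members with a mean of at least 5 CPM differed by 1.5-fold, against 7.68% of all genes. A list of 18 is too short to tell these apart. *nkx3.2*, of jaw joints, was the widest (1.34-fold).

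Epidermal genes held 3.11, 2.80 and 2.76% of TPM, with 58 of 59 detected and a median of 107 TPM. After *krt4*, which made up 28.0% of the list, the basal cell keratin *krtt1c19e* had 3178, 2446 and 2592 TPM, *krt5* 2726, 2719.8 and 2699 TPM and the calcium-binding protein gene *icn* 2981, 2549 and 2434 TPM. Keratin, *cyt1* and *icn* genes together, 22 in number, reached 26764, 24156 and 23986 TPM. The cell adhesion gene *epcam* had 362, 357 and 343 TPM and the basal cell factor *tp63* 35.6, 40.1 and 35.9 TPM. The desmosome genes *dsc2l* (30.8, 37.8 and 20.8 TPM) and *dspa* (44.8, 38.2 and 25.9 TPM) were the widest, at 1.84 and 1.80-fold, with pool 3 lowest in both. No skin gene differed by 2-fold, and 12 of 57 differed by 1.5-fold (21.1%, against 7.68%). Pool 1 was highest for 40 of the 57, against 37.1% of all genes. Of the 57, 2 passed 1.5-fold without pool 1, against 10 without pool 2 and 3 without pool 3.

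Ionocytes, the ion-transporting cells of skin and gill, were represented by 17 of 20 detected genes and 0.109, 0.107 and 0.104% of TPM. The ammonia transporter *rhbg* had 199.8, 192 and 188 TPM, the proton pump subunit *atp6v1aa* 181, 185 and 192 TPM and the sodium pump subunit *atp1a1a.1* 176, 179.6 and 159.8 TPM. *rhcga*, another ammonia transporter gene, had 128, 131 and 73.1 TPM and differed by 1.82-fold.

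Red blood cell genes held 0.0917, 0.0781 and 0.0909% of TPM, with 23 of 36 detected (63.9%, against 62.2% of all genes). This share is uncertain, because globin genes are near-identical copies and reads that align to several of them were not counted. Of the 15 globin genes listed under a globin symbol, 6 were detected and 8 were below 1 TPM in every pool. The embryonic alpha globin *hbae3* had 401, 334 and 437 TPM and *hbae1.3* 21.6, 10.8 and 9.78 TPM. The embryonic beta globins *hbbe1.1*, *hbbe2*, *hbbe1.3* and *hbbe1.2* had 86.2, 54.5 and 53.2 TPM, 48.7, 42.3 and 49.5 TPM, 48.2, 37.1 and 42.1 TPM and 15.6, 15.1 and 11.4 TPM. *hbae1* was at 1.09, 0.491 and 0.569 TPM, above 1 TPM in pool 1 only. The embryonic genes *hbae5*, *hbz* and *hbbe3* and the adult genes *hbaa1*, *hbaa2*, *hbba1* and *hbba2* had 11 counts or fewer in every pool. The ammonia transporter *rhag* of red cells had 110.3, 105 and 117 TPM and the carbonic anhydrase gene *cahz* 54.8, 49.5 and 51 TPM. *fech*, which inserts iron into haem, was the widest at 3.38-fold, with 5.95, 4.36 and 14.9 TPM.

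Immune and vessel genes were mostly low. Of 31 microglia and macrophage genes 25 were detected, with a median of 3.39 TPM over the list. *apoc1*, an apolipoprotein gene also made outside macrophages, had 1014, 693 and 809.8 TPM and made up 82.1% of the list, while *mpeg1.1*, a defining macrophage gene, had 5.77, 4.0 and 5.08 TPM. The next highest were *cd68*, a lysosomal gene listed as *si:ch211-212k18.7*, and the chemokine *ccl34b.1* (32.3, 30.3 and 31.9 TPM). All 15 neutrophil genes were detected. The carboxypeptidase gene *cpa5* made up 64.8% of that list with 251, 305 and 424 TPM, and it was highest in pool 3, as were the pancreas genes. Lysozyme (*lyz*) had 38.9, 40.1 and 51.4 TPM, myeloperoxidase (*mpx*) 11.2, 8.97 and 8.46 TPM and *lect2l*, a chemotaxin gene and the widest (2.48-fold), 44.1, 18.4 and 22.3 TPM. Of 17 thymus and lymphocyte genes 10 were detected (58.8%, against 62.2% of all genes). *tox*, which neurons also express, had 99.9, 122 and 123 TPM, and *rag1*, of antigen receptor recombination, 10.5, 7.81 and 7.82 TPM. *pax5*, a factor shared by B cells and the midbrain boundary, had 2.51, 4.91 and 6.29 TPM. Of 26 endothelial genes 25 were detected, led by the water channel *aqp1a.1* (56.3, 55.6 and 54.7 TPM), the factor *fli1a* (26.9, 30.9 and 25.8 TPM) and *vsg1* (24.6, 28.5 and 27.2 TPM). The factor *erg* was the widest (1.4-fold).

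The dissection was examined through Hox genes, whose paralog groups mark successively more posterior levels of the body. Of the 25 genes of groups 1 to 8, 24 were detected, with sums of 253, 227 and 236 TPM. Of the 23 genes of groups 9 to 13, the most posterior ones, 1 was detected (*hoxa13b*, 1.16, 1.09 and 1.31 TPM), with sums of 6.78, 6.83 and 6.06 TPM. The division after group 8 was not planned and does not separate head from trunk. Group 5, whose genes are expressed from about the border of hindbrain and spinal cord backward, was highest at 81.5 ± 7.67 TPM (SD, n = 3), through *hoxb5a* (31.6, 28.8 and 28.3 TPM), *hoxb5b* (28.3, 22.9 and 25.3 TPM) and *hoxc5a* (19.9, 15.5 and 16.0 TPM). The highest gene of another group was *hoxb3a* (20, 21.3 and 21.5 TPM). Groups 1 and 2, of the hindbrain, were at 10.7 ± 0.202 and 16.7 ± 2.27 TPM. Groups 3 and 4 were at 47.4 ± 1.57 and 42.1 ± 2.70 TPM, and group 6 at 24.6 ± 4.67 TPM. Group 8 had 19.2, 12.1 and 11.2 TPM, highest in pool 1. *hoxc6a* was the widest Hox gene with a mean of at least 5 CPM, at 1.65-fold. Of the 15 tail and trunk genes 9 were detected (60%, against 62.2% of all genes). The highest were the fin fold actinodins *and2* (89.6, 64.2 and 56.0 TPM), *and1* (48.8, 42.3 and 36.8 TPM) and *and3* (36, 25.9 and 21.1 TPM), and *tbx6*, of early trunk mesoderm, was the widest (2.69-fold, with 1.89, 3.67 and 5.30 TPM).

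Genes of organs that lie behind the head were detected in all 3 pools, with liver genes at the highest level. Mean shares of TPM were 2.59% for liver, 0.495% for exocrine pancreas, 0.191% for intestine and 0.0205% for pronephros genes. The lists of liver, pancreas, intestine and kidney together held 3.36, 3.06 and 3.71% of TPM, against 1.83, 1.97 and 1.98% for the brain lists. As a share of counts the order was the other way round, with 2.22 ± 0.198% for the organ lists and 2.52 ± 0.101% for the brain lists (SD, n = 3). Of 46 liver genes 37 were detected, and they held 2.73, 2.32 and 2.71%. *apoa1b*, which the yolk syncytial layer and intestine also make, supplied 40.1% of this share. Without *apoa1b*, *apoa2* and *apoa1a* the liver list held a mean of 1.09% of TPM, against 2.59% with them. The liver fatty acid-binding protein gene *fabp10a*, a defining hepatocyte gene, had 3409.9, 2734 and 3173 TPM and *apoa2* 4618, 3429.7 and 4142 TPM. The vitellogenin genes *vtg1*, *vtg2*, *vtg3*, *vtg5*, *vtg6* and *vtg7*, egg yolk precursors of the adult female liver, were below 1 TPM in every pool.

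Exocrine pancreas genes held 0.338, 0.452 and 0.693% of TPM, highest in pool 3 and lowest in pool 1. *ctrb1*, for chymotrypsinogen, had 668, 828 and 1300.5 TPM, and the trypsins *prss59.2* and *try* had 645, 778 and 1210.2 TPM and 546, 799.8 and 1238 TPM. Of the 20 pancreas genes with a mean of at least 5 CPM, 8 differed by 2-fold (40.0%, against 1.8% of all genes). Pool 3 was highest for 19 of the 20 under each of 3 scalings. TMM scaling put pool 3 highest for 34.8% of all genes. Between pools 1 and 3, 7 of the 20 differed by 2-fold, against 1 between pools 1 and 2 and 0 between pools 2 and 3. The amylase gene *amy2a* was the widest, with 55.4, 110.3 and 155 TPM (2.67-fold). Insulin (*ins*), of the endocrine pancreas, had 24.3, 36.9 and 52.5 TPM and was also highest in pool 3. Of the 11 endocrine pancreas genes 10 were detected, but the 3 highest, *neurod1*, the secretory granule gene *scg3* (194, 207 and 217 TPM) and *isl1* (59, 68.2 and 71.8 TPM), are also neuronal genes.

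Of 30 intestinal genes 25 were detected, led by *apoa4b.1* (311, 211 and 249 TPM), *lgals2b* (246, 240.4 and 279 TPM) and *fabp1b.1* (195, 232 and 194 TPM). *apobb.2*, a lipoprotein gene, was the widest (3.71-fold). Of 15 pronephros genes 13 were detected, led by *slc4a4a* (38.9, 43.7 and 46.0 TPM), *pdzk1* (29.6, 32.3 and 33.6 TPM) and *podxl* (25.1, 26.4 and 26.7 TPM), with *cdh17* the widest (1.57-fold). How these organs came to be represented was not tested.

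Most genes differed little between the 3 wild-type pools. Among 15516 genes with a mean of at least 5 CPM, the median difference between the highest and the lowest pool was 1.17-fold, and 23.5% of genes lay under 1.1-fold. At 2-fold or more were 280 genes (1.8%), at 1.5-fold 1191 (7.68%), at 3-fold 51 and at 5-fold 12. A ratio of the highest to the lowest of 3 values cannot fall below 1 and grows with the number of pools, so over pairs of pools the counts at 2-fold were lower, 84 for pools 1 and 2, 197 for pools 1 and 3 and 93 for pools 2 and 3. The edgeR biological coefficient of variation over these genes was 0.126. The 2 lanes of a pool measure the same RNA, and none of these genes differed by 2-fold between lanes, with medians of 1.04-fold in each pool. A gene at the minimum of 5 CPM had about 205 counts in the smallest pool, for which counting alone gives a coefficient of variation of 6.98%.

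The genes past 2-fold were unevenly divided between pools. Pool 1 was highest for 146 of the 280 and pool 3 lowest for 139, while over all 15516 genes pool 1 was highest for 37.1% and pool 3 lowest for 33.3%. The pair of pool 1 highest and pool 3 lowest took 114 of the 280 genes (40.7%), against 20.4% of all genes. Of the 280 genes, 76 were in the lists used here, which hold 1341 of the 20084 detected genes. List members were chosen with earlier results of these data known, so this count is a description only.

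**Figure D4:**
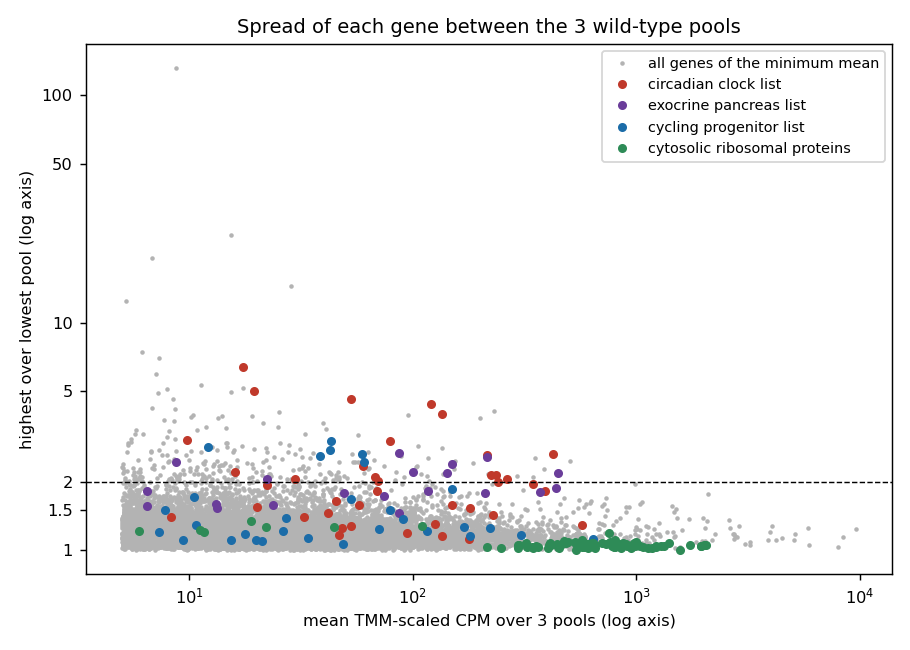
Highest over lowest wild-type pool (log axis) against mean TMM-scaled CPM (log axis) for the 15516 genes with a mean of at least 5 CPM, grey, with 4 lists in colour and a dashed line at 2-fold. Ribosomal protein genes lie near 1, with a median of 1.05, and 17 clock genes, 8 pancreas genes and 6 progenitor genes lie above the line.

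The widest genes stood far from the rest. The highest ratio was that of *si:ch211-181d7.1*, singled out after its values were seen, with 9, 1050 and 18 counts. It was the only gene with a mean of at least 5 CPM that had 20 counts or fewer in a pool. Among genes with a symbol not built from a clone name, *HPX*, named for the haem carrier hemopexin and separate from *hpx*, had 817, 46 and 1248 counts, nearly absent from pool 2 (24.2-fold). The zinc finger gene *znf1179* had 137, 1766 and 1808 counts, low in pool 1 (14.5-fold), and *spsb3b* 76, 184 and 563 counts (7.44-fold). *eevs*, of the synthesis of the sunscreen compound gadusol, had 534, 68 and 400 counts (6.98-fold), and *cry5* 1019, 169 and 1205 counts (6.36-fold). Both were low in pool 2. *cyp2aa8*, a cytochrome P450 gene, had 666, 180 and 112 counts (5.92-fold) and *mthfd1l*, of mitochondrial folate metabolism, 780, 136 and 167 counts (5.09-fold), both high in pool 1. *prdm1b* had 317, 404 and 1625 counts (5.15-fold) and *aanat2* 352, 528 and 1752 counts (5.00-fold), both high in pool 3, and *cnga3b* had 1287, 513 and 260 counts.

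Circadian clock genes had the highest share of 2-fold differences of all 47 lists. Lists and members were chosen with earlier results of these data known, so this rank is a description and not independent of the data. The clock is a feedback loop in which Clock and Arntl proteins drive *per*, *cry* and *nr1d* genes, whose products shut the loop down, so that many of these transcripts cycle over the day. All 39 clock genes were detected and had a mean of at least 5 CPM, and 17 of them differed by 2-fold or more (43.6%, against 1.8% of all genes). Between pools 1 and 2 alone 3 did, against 12 between pools 1 and 3 and 12 between pools 2 and 3. The median difference of the 39 was 1.93-fold, against 1.17-fold. The list as a whole held 0.305, 0.297 and 0.276% of TPM, a smaller difference than that of its members, which were highest in pool 1 for 15, in pool 2 for 11 and in pool 3 for 13.

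Over all genes pools 3, 1 and 2 were lowest for 33.3, 37.0 and 29.7%. Of the 39 clock genes, 18 were lowest in pool 3, 16 in pool 1 and 5 in pool 2. Among those past 2-fold and lowest in pool 3 were several repressors and output factors. *per1a* had 82.1, 59 and 17.7 TMM-scaled CPM (4.63-fold), *per1b* 273, 266 and 104 CPM and the nuclear receptor gene *nr1d1* 182, 137 and 41.7 CPM (4.37-fold). The repressors *ciarta* and *ciartb* had 111, 89.1 and 36.7 CPM and 14.2, 10.5 and 4.63 CPM, and the output factors *dbpa* and *dbpb* 86.1, 75.3 and 41.0 CPM and 71.4, 76.2 and 32.4 CPM. In each of these, pools 1 and 2 were both above pool 3.

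Other clock genes were highest in pool 3. *aanat2*, the pineal enzyme of nightly melatonin synthesis, had 7.62, 12.9 and 38.1 CPM, the cryptochrome gene *cry1bb* 64.4, 87.8 and 254 CPM (3.95-fold) and the activator *arntl2* 10.4, 14.8 and 22.8 CPM. The activators *clocka* and *arntl1b* were also highest in pool 3, with 33.1, 48.7 and 54.4 CPM and 34.2, 40.8 and 49.9 CPM.

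Light-induced genes were among those lowest in pool 2. *cry5*, a light-induced photolyase-like gene, had 22.1, 4.12 and 26.2 CPM, *per2*, the light-induced period gene, 323, 157 and 317 CPM, *tefa* 305, 142 and 226 CPM and *lonrf1l* 244, 146 and 314 CPM. *cry1ba* was the most abundant clock gene, at 211, 221 and 283 TPM, followed by *nr1d2a* (215, 307 and 117 TPM) and *nfil3-5* (119, 221 and 227 TPM). The steadiest was *tefb*, at 1.12-fold. The labels give no hour of collection for any pool.

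**Figure D5:**
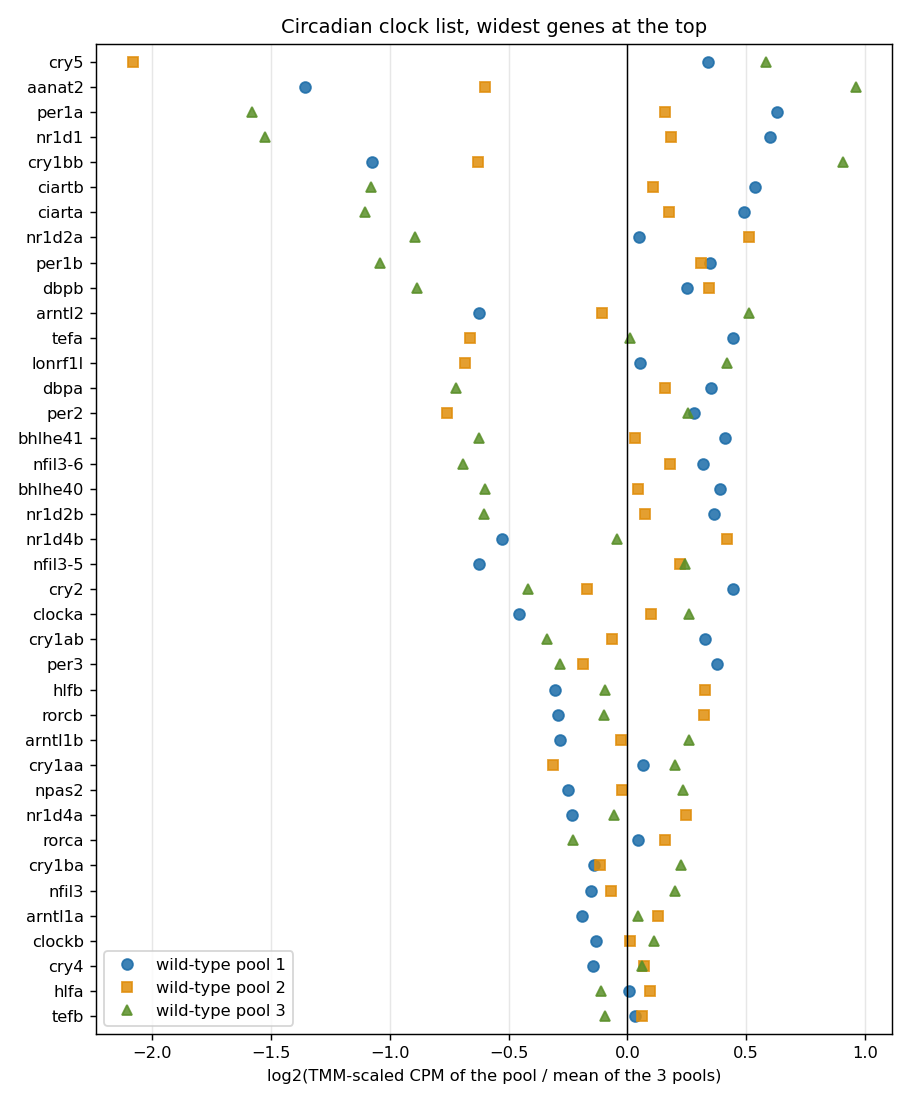
Level of each circadian clock gene (rows, widest at the top) in wild-type pools 1, 2 and 3 (symbols), as log2 of the TMM-scaled CPM over the mean of the 3 pools. Pool 3 lies far to the left for *per1a*, *nr1d1*, *ciarta* and *ciartb* and to the right for *aanat2* and *cry1bb*, and pool 2 lies to the left for *cry5*, *tefa*, *lonrf1l* and *per2*.

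Stimulus-response genes also differed. Of the 31 immediate early and heat shock genes with a mean of at least 5 CPM, 17 differed by 1.5-fold (54.8%, against 7.68% of all genes) and 4 by 2-fold. Without pool 2, 7 passed 1.5-fold, against 11 without pool 1 and 12 without pool 3. Pools 1, 2 and 3 were highest for 8, 21 and 2 of the 31. The list was drawn up as 1 set, and its division into immediate early and heat shock genes was not planned. Of the 31, the 23 immediate early genes, which cells switch on within minutes of activity or stress, were highest in pool 2 in 21 cases. Pool 2 was highest for 28.1% of all genes. *egr1* had 113, 168 and 118 TPM, *fosab* 19.5, 35.7 and 20.4 TPM and *npas4a*, an activity marker of neurons, 18.6, 31.7 and 19.9 TPM, while *ier5* (124, 147 and 138 TPM) and *jun* (80.4, 93.7 and 76.6 TPM) varied little. *fosb* was the widest, at 2.90-fold. The 8 heat shock and chaperone genes were instead all highest in pool 1, with 43.2, 33.5 and 18.2 TPM of *hsp90aa1.2*. Pool 1 was highest for 37.1% of all genes.

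Among genes that answer to glucocorticoid, fasting or low oxygen, 7 of 24 differed by 2-fold (29.2%, against 1.8%), and none did between pools 1 and 2 alone, against 5 between pools 1 and 3 and 4 between pools 2 and 3. The glucocorticoid receptor cochaperone *fkbp5* had 241, 324 and 128 TPM, low in pool 3, and *tsc22d3*, a glucocorticoid target, 202, 258 and 192 TPM. *hif1al*, a paralog of the hypoxia-inducible factor genes, had 197, 229.6 and 186 TPM. The growth factor-binding protein genes *igfbp1a* and *igfbp1b* had 62.6, 122 and 188 TPM and 23.6, 47.3 and 89 TPM, both highest in pool 3, by 2.88 and 3.62-fold. Of the 26 interferon response genes 13 were detected (50%, against 62.2% of all genes). *b2ml* had 94.7, 112 and 105 TPM, the signalling factor *stat1a* 42.3, 43.0 and 43.1 TPM and the class I antigen gene *mhc1zba* 14.2, 26.3 and 48.1 TPM, highest in pool 3 (3.25-fold).

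Most liver genes were lowest in pool 2, but the widest of them differed in direction. Of 37 with a mean of at least 5 CPM, pool 2 was lowest for 24 and highest for 0, and pool 1 was highest for 23. Over all genes at that mean, pool 2 was lowest for 29.7% and highest for 28.1%, and pool 1 was highest for 37.1%. Of the 37, 8 differed by 2-fold (21.6%, against 1.8%), but none between pools 2 and 3, against 6 between pools 1 and 2 and 5 between pools 1 and 3. *apoa1a* had 905, 334 and 231 TPM, a 4.09-fold difference, whereas its paralog *apoa1b* differed by 1.2-fold. The complement and clotting genes *c9* (195, 88.4 and 122 TPM) and *fgb* (139, 66.5 and 94.7 TPM) were highest in pool 1. The fetuin genes *fetub* (1753, 2984 and 3221 TPM) and *ahsg1* (34.9, 79.3 and 89 TPM) were lowest in pool 1.

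At the other end were genes of very small spread. Among the 1831 genes with a mean of at least 100 CPM, 32 differed by 2-fold and 125 by 1.5-fold. The narrowest was the ribosomal protein gene *rpl7a*, with 1572, 1576 and 1575 CPM (1.00-fold). It was followed by the prolyl isomerase gene *ppiaa* (1149, 1152 and 1149.8 CPM), *rps13* (535, 537 and 538 CPM), the ankyrin gene *ANK2* (126, 127 and 127 CPM) and the chaperonin subunit *cct5* (196, 197 and 197 CPM). These genes were chosen for their small ratio from 1831, so no order is read among them. All 88 ribosomal protein genes differed by less than 1.5-fold, and the widest of them was *RPS27L*, at 1.34-fold.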

How the data were processed

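RNA was extracted from pools of 5 dissected heads of 5 dpf larvae and sequenced from one end in reads of 50 bases on 2 lanes per pool. The authors aligned reads with GSNAP to GRCz10 and deposited HTSeq counts of uniquely aligned reads per gene. The authors also deposited FPKM values, computed from the same counts and exonic lengths. Whether strand was used in counting is not given in the sources used here, so antisense and overlapping genes cannot be told apart. The authors' table of comparisons holds fold changes and p-values between genotypes and was not used.

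Counts of both lanes of a pool were summed. TPM was computed from the summed counts and the exonic lengths that the authors gave with the FPKM values (R 4.3.3, Python 3.11.15, pandas 2.3.3, numpy 2.4.6, matplotlib 3.10.9). FPKM recomputed from counts and these lengths matched the authors' values. The spread between pools is the highest over the lowest TMM-scaled CPM (edgeR 4.0.16) among genes with a mean of at least 5 CPM. DESeq2 1.42.0 size factors, total counts, single lanes, other count minimums and leaving out each pool served as alternatives. The code was tested on simulated data. With 1 genotype, no significance test was run. Intervals from counts would cover counting error only.

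Of the 47 lists, 43 were lists of symbols. The other 4, of ribosomal protein, mitochondrial genome, respiratory chain and histone genes, were drawn by gene name pattern. The 43 lists held 1305 symbols, of which 1255 were matched, 54 of them by letter case or a reference synonym. Over all lists 24 identifiers were in more than 1 list. Members and lists were chosen with earlier results of these data known. Genes named were the 20 highest by TPM, the 10 highest by counts, the 3 highest and the widest of each list, visual opsins, globins and Hox genes, the 10 widest genes with a symbol not built from a clone name, and the 5 narrowest with a mean of at least 100 CPM. Further genes were named for their role after their values were seen. Promoter and protein sequences were not analysed here.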

Additional observations from a re-analysis of the deposited data

How the results depend on the processing

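Levels rested on 3 pools of 1 genotype, so the spread has few values behind it, and depth limited weakly expressed genes most: at the minimum of 5 CPM counting alone gives a coefficient of variation of 6.98%. No paired analysis was possible because only 1 genotype is described and no test was run.

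The share of the 20 highest genes, 13.3% of TPM, was 9.24% of counts and 11% without mitochondrial genes. As a share of counts, and then without its most abundant member, the photoreceptor list (3.14% of TPM) held 2.67 and 2.45%, lens (5.57%) 2.84 and 4.97%, neurons (0.994%) 1.41 and 0.924%, cartilage (0.434%) 0.933 and 0.334%, skin (2.89%) 2.67 and 2.08%, red blood cells (0.0869%) 0.0682 and 0.0479% and liver (2.59%) 1.70 and 1.55%. Without its most abundant member fast muscle held 2.45%, against 2.80%. Without *apoa1b*, *apoa2* and *apoa1a*, an alternative chosen after seeing the data, liver held 1.09%.

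Instead of 280 genes at 2-fold, 577 were found with a mean of at least 1 CPM, 120 with at least 20 CPM and 2891 with no minimum beyond a count in every pool, and 1191 passed 1.5-fold. With 1 pool left out, 82 to 186 genes passed, over ratios of 2 pools that are smaller by construction, with 82 without pool 3, 89 without pool 1 and 186 without pool 2. DESeq2 size factors gave 274 and total counts 271. Without clock, immediate early and glucocorticoid genes, also chosen after seeing the data, 253 of 15423 genes passed.

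Of the 39 other lists, 31 moved beyond the spread between pools as a share of counts, 35 without their most abundant member and 2 when the read length was taken off each gene. Of the 24 lists that share members, 8 moved without them. None of the 39 moved on a single lane. Leaving out a pool cannot move a mean of 3 pools beyond their SD, so that alternative says nothing about the stability of a share.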

Other observations

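Genes of sense organs and glands not described above were also detected in the 3 wild-type pools. Of 33 inner ear and lateral line genes 30 were detected, at 0.152, 0.14 and 0.149% of TPM. The parvalbumin *pvalb8* had 566, 484 and 536 TPM and the calmodulin gene *calm1b*, which is expressed widely, 328, 340.0 and 339 TPM. *stm*, the starmaker gene of ear stones, had 175, 152 and 167 TPM, and the otolith matrix gene *otomp* 101, 83.5 and 93.6 TPM. The otoferlin genes *otofa* and *otofb*, of hair cell synapses, had 15.6, 17.2 and 16.7 TPM, and 16.5, 14.8 and 16.1 TPM. *CABZ01086806.1* was the widest gene of the list, at 1.52-fold, and none of its 25 genes with a mean of at least 5 CPM differed by 2-fold, against 1.8% of all genes.

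Of 12 olfactory genes 11 were detected. The calretinin genes *calb2a* and *calb2b*, which many neurons share, had 240.4, 251 and 249 TPM, and 232, 237 and 219.6 TPM. The olfactory G protein gene *gnal2* had 25.7, 30.4 and 28.5 TPM and the olfactory marker gene *ompa* 21.9, 20.7 and 21.3 TPM. These genes varied little, and *s100z* was the widest at 1.2-fold. Of 18 pituitary genes 12 were detected (66.7%, against 62.2% of all genes). They were led by growth hormone (*gh1*, 43.8, 61.4 and 59.6 TPM) and the prohormone convertases *pcsk1* (42.7, 48.6 and 61.0 TPM, the widest at 1.37-fold) and *pcsk2* (33.4, 37.4 and 42.9 TPM). Prolactin (*prl*) had 9.76, 9.39 and 11.9 TPM. Of 10 thyroid genes 7 were detected (70%, against 62.2% of all genes). The highest were *pax2a* (17.2, 20.8 and 21.6 TPM), *pax8* (5.69, 8.29 and 9.77 TPM, 1.65-fold) and *nkx2.4b* (7.40, 8.61 and 7.59 TPM), factors shared with brain or kidney.

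Several opsins outside rods and cones were detected, far below *opn1sw1* and *rho* but above the median of 13.4 TPM of all detected genes. *opn4.1*, a melanopsin gene, had 36.6, 35.1 and 28.0 TPM, *opn6b* 29.5, 42.8 and 28.9 TPM, *opn9* 24.8, 27.4 and 19.9 TPM, *opn3* 19.6, 27.0 and 27.1 TPM and *opn6a* 16.2, 16.3 and 29 TPM. *opn6a* was highest in pool 3 and differed by 1.76-fold.

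Of 55 histone genes 15 were detected (27.3%, against 62.2% of all genes). The linker histone gene *histh1l* had 1757, 1731 and 1153 TPM (1.59-fold, the widest), and the variant histone genes *h3f3c* and *h3f3d* had 1033, 1202 and 1063 TPM, and 833, 851 and 871 TPM. Most replication-type histone genes are multicopy, and their transcripts lack poly(A) tails, so their counts are uncertain here.

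Several genes outside all lists differed strongly between pools and were named after their values were seen. The tyrosine aminotransferase gene *tat*, of liver, had 98.1, 128 and 375 TMM-scaled CPM (3.82-fold), the activin subunit gene *inhbb* 14.4, 19.2 and 51.2 TPM (3.41-fold) and *cyp7a1*, the rate-limiting enzyme of bile acid synthesis, 8.51, 31.8 and 27.3 TPM (3.62-fold). *tat* and *inhbb* were highest in pool 3, and *cyp7a1* was lowest in pool 1.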
